A study of Homo sapiens with 18 samples.

Results

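The 3 TET dioxygenases (TET1, TET2 and TET3), the 3 DNA methyltransferases (DNMT1, DNMT3A and DNMT3B) and UHRF1 write, copy and remove cytosine methylation. These 7 genes were followed among the 20263 genes of a table of RNA-seq counts. They were taken by symbol, and the set was chosen by the TET2 level, which is among the largest increases in treated MHCC-97H libraries. The values behind that choice, H3B-8800 against DMSO under the MHCC-97H label, are therefore given for the 7 genes as a description without a test. All 7 genes were among the 14234 that passed the filter on low counts, TET1 only through libraries of the other labels.

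The study treated 3 human cancer lines, all labelled wild type. MHCC-97H is a liver cancer line, MDA-MB-231 a breast cancer line and HCT-116 a colon cancer line. Their medium contained 10% serum and either 20 nM H3B-8800, a small molecule that binds the SF3B1 complex of the spliceosome, or DMSO, its solvent, and RNA was taken at 24 h. There were 3 libraries for each of the 6 groups of label and treatment, and the labels do not say whether they are separate cultures, so every p-value measures the spread between these libraries alone.

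DNMT1 copies methylation onto the new strand behind the replication fork. UHRF1 recognises hemimethylated CpG sites and ubiquitinates histone H3, which recruits DNMT1. DNMT3A and DNMT3B place methyl groups on DNA that carried none. The TET enzymes oxidise 5-methylcytosine to 5-hydroxymethylcytosine and further products, using iron and 2-oxoglutarate. TDG, a glycosylase, excises the later products, and base excision repair then restores an unmodified cytosine. TET1 and TET3 carry a CXXC domain that binds CpG-rich DNA. TET2 lacks one and relies on partner proteins, CXXC4 (IDAX) among them. Loss of TET2 function is frequent in blood cancers, and loss of 5-hydroxymethylcytosine is common in solid tumours.

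The promoters of the 3 TET genes are shown because these genes had unlike patterns: TET1 had no count in one profile, while TET2 and TET3 were both higher in the same treated libraries. Each sequence is the RefSeq window (GRCh38.p14) from 250 bases before to 50 bases after the most upstream annotated start, on the strand of the gene, with every CpG in capitals.
TET1 (chr10:68560087-68560386, plus strand): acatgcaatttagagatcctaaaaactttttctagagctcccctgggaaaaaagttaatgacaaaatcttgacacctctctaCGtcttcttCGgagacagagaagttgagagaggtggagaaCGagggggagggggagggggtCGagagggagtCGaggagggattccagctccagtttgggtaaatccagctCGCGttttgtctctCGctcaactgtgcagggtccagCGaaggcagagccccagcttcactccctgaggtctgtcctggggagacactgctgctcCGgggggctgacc
TET2 (chr4:105145625-105145924, plus strand): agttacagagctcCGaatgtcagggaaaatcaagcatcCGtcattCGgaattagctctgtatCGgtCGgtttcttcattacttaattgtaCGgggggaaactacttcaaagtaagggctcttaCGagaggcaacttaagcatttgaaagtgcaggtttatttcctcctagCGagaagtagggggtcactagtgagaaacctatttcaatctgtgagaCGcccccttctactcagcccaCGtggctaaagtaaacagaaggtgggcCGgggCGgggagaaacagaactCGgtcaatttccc
TET3 (chr2:73984660-73984959, plus strand): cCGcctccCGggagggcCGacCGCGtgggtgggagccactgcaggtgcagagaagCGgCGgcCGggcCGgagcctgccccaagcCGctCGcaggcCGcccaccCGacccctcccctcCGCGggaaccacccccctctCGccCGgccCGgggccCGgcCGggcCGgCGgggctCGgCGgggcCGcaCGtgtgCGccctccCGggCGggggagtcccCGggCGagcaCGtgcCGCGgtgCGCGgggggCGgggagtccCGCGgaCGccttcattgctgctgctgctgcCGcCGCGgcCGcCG
The TET1 window holds 10 CpG sites, the TET2 window 13 and the TET3 window 45, against a median of 14 over 35116 promoters of that length. RefSeq gives TET2 a second start downstream (chr4:105146626-105146925), whose window holds 35. The letters CACGTG, the E-box core, which reads alike on both strands, occur in the most upstream windows of TET2 and TET3, and in 7.26% of all the promoters. GGGCGG, searched on both strands, occurs in the same 2 windows and in 45.0% of all, and neither motif is in the TET1 window. The downstream windows of TET2 and TET3 hold GGGCGG and lack CACGTG. The most upstream windows of DNMT1 (30 CpG sites) and UHRF1 (36) both hold at least 1 of TTTCCCGC, TTTCGCGC, TTTGCCGC and TTTGGCGC, forms of the E2F site, on either strand, as do 3.31% of all promoters. Those of DNMT3A and DNMT3B hold 18 and 3 CpG sites and none of these letters. The RefSeq windows of DNMT1, UHRF1 and DNMT3B (chr20:32779602-32779901) lie inside the GENCODE spans given below, downstream of the GENCODE starts. Sequence at those starts was not examined, so the count of 3 need not hold for the DNMT3B start at 32762385. Downstream windows of DNMT3A hold up to 46 CpG sites, and some hold GGGCGG or CACGTG. No methylation was measured in these samples.

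Levels are CPM, a gene's share of its library's counts on a fixed total, scaled with edgeR's TMM factors, from library totals of 28232315 to 41488278 counts. Those under the MDA-MB-231 and the HCT-116 label shared one expression profile: under DMSO, 5 of 14234 genes (0.0351%) passed an adjusted p of 0.05 between them, against 12044 (84.6%) between MHCC-97H and their mean. The intestinal markers KRT20, LGALS4, VIL1, CDH17 and CDX2 had counts under both labels and CDX1 had none, and all 6 were at 0 in MHCC-97H. The 6 intestinal markers summed to 1530 to 1640 CPM over the 12 libraries of the shared profile. Of 6 liver markers, MHCC-97H libraries had counts only for HNF4A (sums of 4.69 to 5.93 CPM), with ALB, AFP, APOA1, SERPINA1 and TTR at 0, while the shared profile had all 6 (38.6 to 67.7 CPM). The mesenchymal and basal breast list reached 1520 to 1690 CPM in MHCC-97H, mostly VIM, and 13600 to 15000 CPM in the shared profile, mostly FN1 and CAV1. FN1 averaged 8300 (MDA-MB-231) and 8770 CPM (HCT-116), and CAV1 5480 and 5620 CPM. CDH2 averaged 123 CPM under each of these labels and 25.2 CPM in MHCC-97H. In the shared profile TWIST1 was at 0 and VIM averaged 18.7 (MDA-MB-231) and 21.2 CPM (HCT-116). Groups are named by their labels below. The counts do not separate the libraries labelled HCT-116 and MDA-MB-231 as 2 lines, and which line they hold was not tested. Values over both are therefore over 12 libraries of one profile and are not shown to cover 2 lines. The part of line identity in any difference between labels was not tested.

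TET2 (ENSG00000168769, chr4:105145875-105279816 of GRCh38) is the dioxygenase without a CXXC domain. In MHCC-97H it had 14.5, 13.5 and 22.0 CPM in the H3B-8800 libraries, against 7.52, 4.91 and 3.86 CPM in the DMSO libraries. The lowest treated library lay above the highest control. The share of all genes whose groups are separate in this way was not counted. The mean was 16.6 ± 4.64 CPM with H3B-8800 and 5.43 ± 1.88 CPM with DMSO (SD, n = 3 each), a ratio of 3.06, and the fitted log2 fold change was 1.61 (SE 0.30). In the other labels the treated and control libraries overlapped. TET2 had 10.1, 10.3 and 9.06 CPM with H3B-8800 and 11.3, 10.3 and 10.7 CPM with DMSO under MDA-MB-231. Under HCT-116 it had 12.2, 6.24 and 13.3 CPM with H3B-8800 and 13.6, 7.70 and 13.3 CPM with DMSO. The HCT-116 spread came from replicate 2, the lowest library of both treatments. Over both labels, which the choice of genes did not use, the mean log2 fold change was -0.13 (SE 0.21, 95% interval -0.57 to 0.31, edgeR quasi-likelihood test, adjusted p = 0.93). A difference of the MHCC-97H effect from the others was not tested, since that effect chose the genes.

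TET3 (ENSG00000187605, chr2:73986404-74108176), a dioxygenase best known from the zygote, where it oxidises the paternal genome in mice, showed the next largest increase in MHCC-97H. It had 22.8, 22.7 and 22.8 CPM with H3B-8800 and 17.6, 15.4 and 16.5 CPM with DMSO. The groups did not overlap, again without a share over all genes to set beside it, and the treated libraries were nearly identical (SD 0.0472 CPM). The log2 fold change was 0.46 (SE 0.11), a ratio of means of 1.38, and 0.59 with library totals in place of TMM factors. Under MDA-MB-231 TET3 had 16.3, 14.7 and 14.6 CPM with H3B-8800 and 17.6, 16.6 and 16.2 CPM with DMSO. Under HCT-116 it had 17.1, 13.0 and 18.1 CPM with H3B-8800 and 16.9, 14.0 and 16.0 CPM with DMSO. The groups overlapped under both labels, and the mean log2 fold change was -0.05 (95% interval -0.22 to 0.11, edgeR, adjusted p = 0.91).

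TET1 (ENSG00000138336, chr10:68560656-68694482), the founding member of the family, was not detected in MHCC-97H with either treatment. All 6 libraries had 0 counts of 211844736 in total, where 3 counts over the 6 libraries, the limit that a count of 0 allows, equal 0.0142 CPM. Against the mean of 6.02 CPM (by library totals) in the other 12 libraries, TET1 was at least 425-fold lower. This limit covers counting error only. Under MDA-MB-231 it had 6.69, 4.65 and 5.98 CPM with H3B-8800 and 6.29, 5.83 and 5.05 CPM with DMSO. Under HCT-116 it had 6.13, 4.60 and 6.09 CPM with H3B-8800 and 6.52, 4.42 and 6.79 CPM with DMSO. Treated and control libraries overlapped under both labels, with a mean log2 fold change of -0.03 (95% interval -0.35 to 0.29, edgeR, adjusted p = 1).

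**Figure D1:**
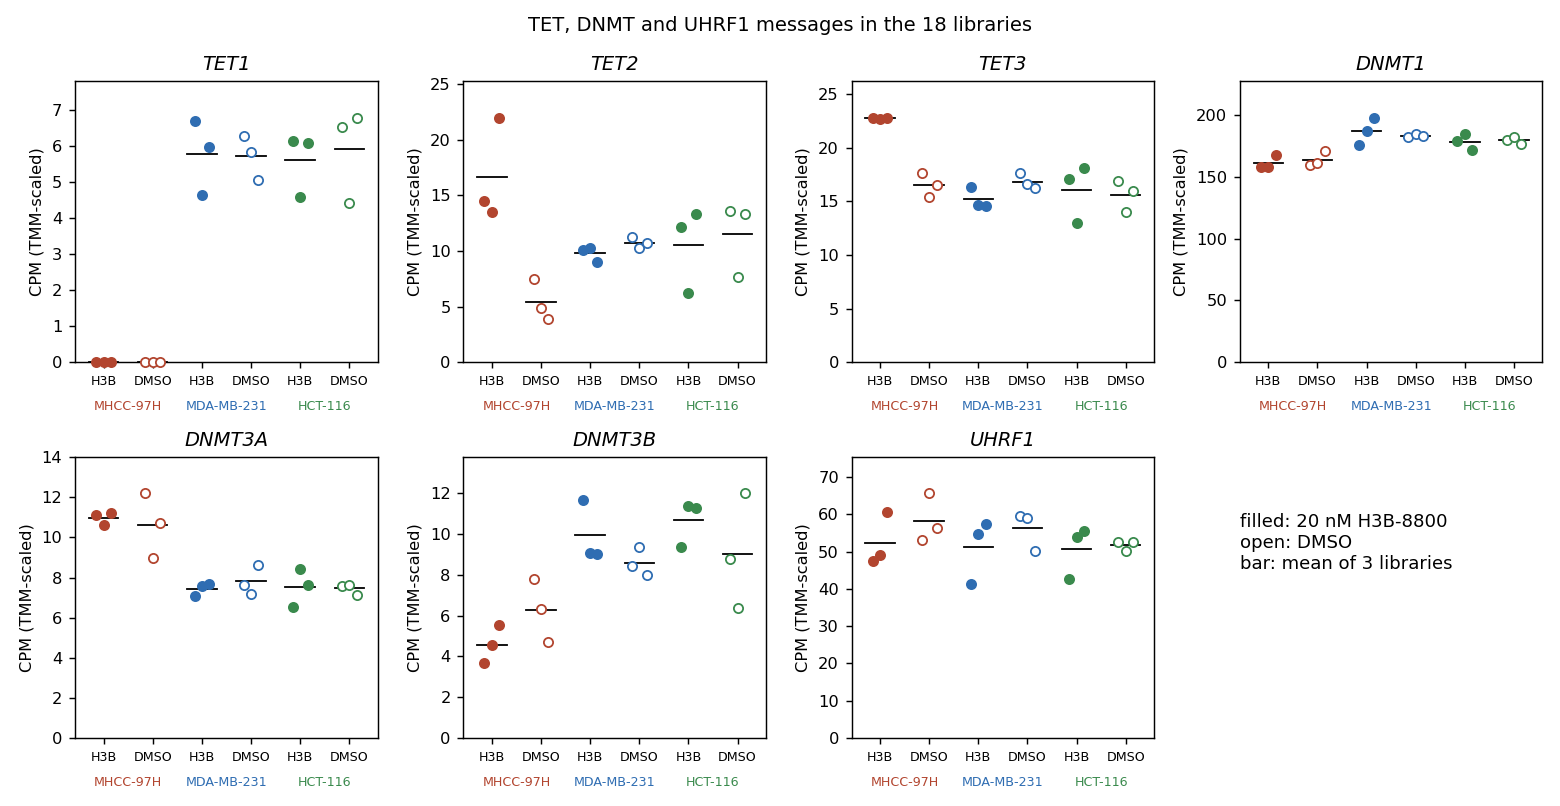
TMM-scaled CPM (vertical axes, linear from 0) of the 7 genes in each library, with H3B-8800 filled and DMSO open, coloured by line label; bars are means of 3 libraries. TET2 and TET3 lie higher in all H3B-8800 libraries of MHCC-97H than in its DMSO libraries, and TET1 lies at 0 in all 6 MHCC-97H libraries.

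DNMT1 (ENSG00000130816, chr19:10133345-10231286, minus strand), the maintenance enzyme, had overlapping groups under all 3 labels. In MHCC-97H it had 158, 158 and 168 CPM with H3B-8800 and 160, 161 and 171 CPM with DMSO. The log2 fold change was -0.03 (SE 0.05), and 0.11 with library totals. Under MDA-MB-231 it had 176, 187 and 198 CPM with H3B-8800 and 182, 185 and 183 CPM with DMSO. Under HCT-116 it had 179, 185 and 172 CPM with H3B-8800 and 180, 182 and 177 CPM with DMSO. The mean log2 fold change of MDA-MB-231 and HCT-116 was 0.01 (95% interval -0.06 to 0.08, edgeR, adjusted p = 0.99). Exons of DNMT1 overlap those of S1PR2, so reads there could belong to either gene.

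UHRF1 (ENSG00000276043, chr19:4903080-4962154), which brings DNMT1 to hemimethylated DNA, also had overlapping groups everywhere. It had 47.4, 49.0 and 60.5 CPM with H3B-8800 and 53.0, 65.6 and 56.2 CPM with DMSO in MHCC-97H (log2 fold change -0.16, SE 0.14). It had 41.2, 54.8 and 57.4 CPM with H3B-8800 and 59.6, 59.1 and 50.2 CPM with DMSO under MDA-MB-231. Under HCT-116 it had 42.6, 53.8 and 55.4 CPM with H3B-8800 and 52.6, 50.2 and 52.6 CPM with DMSO. In these 2 labels replicate 1 of H3B-8800 was the lowest library. Their mean log2 fold change was -0.09 (95% interval -0.29 to 0.12, edgeR, adjusted p = 0.88).

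DNMT3A (ENSG00000119772, chr2:25227855-25342590, minus strand) and DNMT3B (ENSG00000088305, chr20:32762385-32809356) are the de novo enzymes, DNMT3B being the form known for pericentromeric repeats. DNMT3A had 11.1, 10.6 and 11.2 CPM with H3B-8800 and 12.2, 8.98 and 10.7 CPM with DMSO in MHCC-97H, a log2 fold change of 0.04 (SE 0.12). It ranged from 6.55 to 8.43 CPM with H3B-8800 and from 7.15 to 8.64 CPM with DMSO in the other labels. Its mean log2 fold change there was -0.03 (95% interval -0.21 to 0.15, edgeR, adjusted p = 0.98), so no treatment difference was detectable.

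DNMT3B had 3.66, 4.56 and 5.53 CPM with H3B-8800 and 7.78, 6.34 and 4.73 CPM with DMSO in MHCC-97H. The groups overlapped through the third DMSO library, and the log2 fold change was -0.46 (SE 0.23). Under MDA-MB-231 it had 11.7, 9.09 and 9.03 CPM with H3B-8800 and 8.43, 9.37 and 7.98 CPM with DMSO. Under HCT-116 it had 9.38, 11.4 and 11.3 CPM with H3B-8800 and 8.76, 6.38 and 12.0 CPM with DMSO. The mean of these 2 labels was 0.23 (95% interval -0.11 to 0.56, edgeR, adjusted p = 0.78). The HCT-116 value of 0.24 became -0.01 when both replicate 2 libraries of that label were left out.

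**Figure D2:**
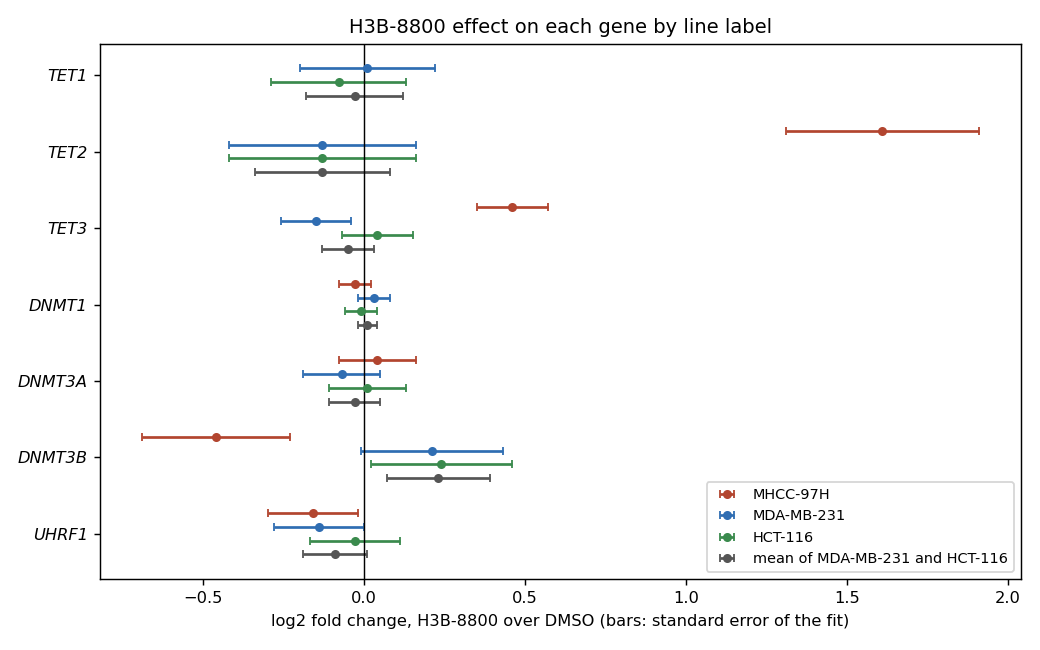
Log2 fold change of H3B-8800 over DMSO (horizontal axis) for each gene and line label, and for the mean of MDA-MB-231 and HCT-116; bars are standard errors of the fit. TET2 in MHCC-97H, at 1.61, lies farthest from 0, and TET1 has no MHCC-97H value because it had no counts there.

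In MHCC-97H, 27.6% of all 14234 tested genes (3922) passed an adjusted p of 0.05. This contrast chose the 7 genes, so no call is given for them in it. The count over all genes was 2439 without DMSO replicate 2, 2141 without DMSO replicate 3 and 2336 without H3B-8800 replicate 2 of MHCC-97H. None of the 7 genes passed under MDA-MB-231 or under HCT-116, where 0.0351% of all genes did in each. None passed in the mean of both labels (0.0422%, or 6 genes, and 24 genes with a block for the replicate number) or in the difference of the MDA-MB-231 effect from the HCT-116 effect (0.0351%). In each of these 4 comparisons 0 of the 7 genes had an unadjusted p under 0.05, and 0 passed by DESeq2 or limma voom. Over all genes, 1024, 655, 1081 and 588 had such a p. Those 4 comparisons share their libraries and are not independent of each other.

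The libraries differed in how their counts leaned on transcript GC content and length. In MHCC-97H the Spearman rho, across genes, of a library's deviations with GC content was -0.41, -0.52 and -0.31 with H3B-8800 and 0.34, 0.40 and 0.47 with DMSO. TET2 is long in exons and rather poor in GC. All its annotated exons together cover 16474 bases, more than in 98.0% of annotated tested genes. Its longest transcript has 43.0% GC. For TET3 these values are 12271 bases and 52.3% GC. Within HCT-116 the 2 libraries with a positive rho, H3B-8800 replicate 2 (0.50) and DMSO replicate 2 (0.39), had the lowest TET2 of that label, with log2 deviations from the label's mean of -0.72 and -0.44. TET1 and TET3 were also lowest in these 2 libraries of HCT-116. MDA-MB-231 H3B-8800 replicate 3 had a rho of 0.44 and a TET2 deviation of -0.17. Once a trend on GC and length was taken out of each library, the MHCC-97H value was 1.20 (SE 0.23) for TET2 and 0.38 (SE 0.10) for TET3, and 15.4% of all genes passed. For the other detected genes it was -0.28 (DNMT3B), 0.02 (UHRF1), -0.01 (DNMT1) and -0.01 (DNMT3A). The trend follows treatment in MHCC-97H, and its part in the TET2 value cannot be told apart from the treatment in these libraries.

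**Figure D3:**
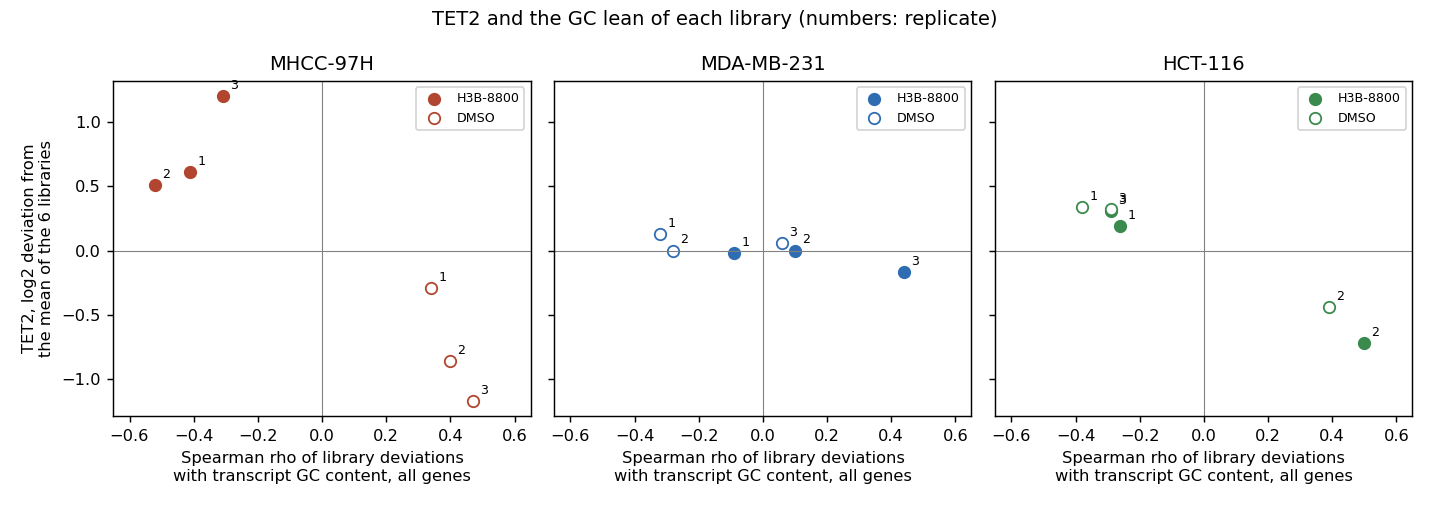
TET2 level of each library as log2 deviation from the mean of the 6 libraries of its label (vertical axis), against the Spearman rho of that library's deviations with transcript GC content over all genes (horizontal axis). Filled points are H3B-8800, open points DMSO, and numbers are replicates: both HCT-116 replicate 2 libraries lie at low right, as do all 3 MHCC-97H DMSO libraries.

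Scaled by exonic length, the make-up of the TET messages differed between the profiles. Exonic length here is that of all annotated exons of a gene together, not of the transcripts present. Shares, ratios and orders of genes per kb therefore depend on the annotation. In MHCC-97H the TET sum was 2.67 to 3.19 CPM per kb with H3B-8800 and 1.55 to 1.89 with DMSO. TET2 made up 30.6% to 41.8% of that sum with H3B-8800 and 14.8% to 24.1% with DMSO, TET3 being the rest. In the 12 libraries of the other labels the sum ran from 1.94 to 2.93 CPM per kb, with TET1 at 21.6% to 27.1%, TET2 at 19.6% to 28.5% and TET3 at 45.8% to 54.8%. The TET2 share of every treated MHCC-97H library lay above every other library, in a sum that lacks TET1 in MHCC-97H only. Beside TET3 alone that order does not hold. HCT-116 DMSO replicate 3 had 28.5% TET2 to 45.8% TET3, and MHCC-97H H3B-8800 replicate 2 had 30.6% to 69.4%. The MHCC-97H shares use the TET2 values that chose the genes. The ratio of DNMT3A to DNMT3B per length was 0.779 to 1.17 with H3B-8800 and 0.546 to 0.876 with DMSO in MHCC-97H. In the other labels it was 0.230 to 0.462, without overlap. The share of gene pairs separate in this way was not counted, and 84.6% of all genes passed between the DMSO libraries of these profiles.

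**Figure D4:**
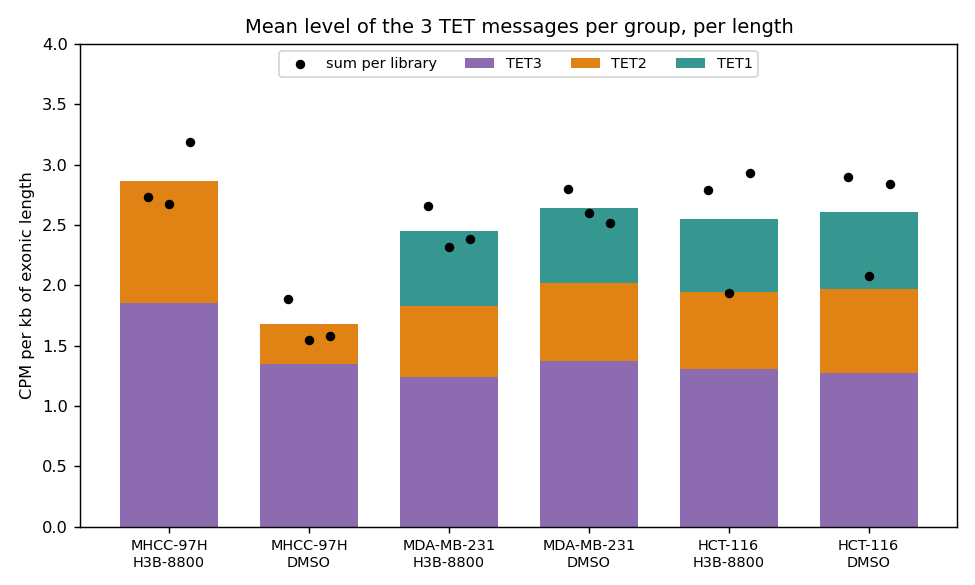
Mean CPM per kb of exonic length (vertical axis, linear from 0) of TET3, TET2 and TET1, stacked, in each group of 3 libraries; black points are the TET sum of each library. TET1 is missing from both MHCC-97H groups, and the H3B-8800 group there has sums of 2.67 to 3.19.

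The order of the 7 genes by level per length was led in each group by DNMT1 and then UHRF1. In MHCC-97H with H3B-8800 these averaged 16.4 ± 0.572 and 10.2 ± 1.38 CPM per kb (SD, n = 3). TET3 followed at 1.85 ± 0.00385, and TET2 (1.01 ± 0.281), DNMT3B (0.989 ± 0.202) and DNMT3A (0.912 ± 0.0237) were within their spread of each other. With DMSO, DNMT1 averaged 16.7 ± 0.640 and UHRF1 11.3 ± 1.27 CPM per kb. DNMT3B (1.36 ± 0.330) and TET3 (1.34 ± 0.0923) were then level within their spread, DNMT3A had 0.884 ± 0.132, and TET2 was lowest of the detected genes at 0.330 ± 0.114. In the DMSO libraries of MDA-MB-231, DNMT3B (1.86 ± 0.153) and TET3 (1.37 ± 0.0597) came after DNMT1 and UHRF1. TET2 (0.652 ± 0.0303), DNMT3A (0.650 ± 0.0619) and TET1 (0.616 ± 0.0675) had overlapping levels at the bottom of that order.

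Between the untreated profiles, MHCC-97H had no TET1 counts and less TET2, DNMT1 and DNMT3B, with more DNMT3A, than the mean of MDA-MB-231 and HCT-116. TET1, which passed the filter only through the other labels, and TET2, whose MHCC-97H DMSO libraries took part in the choice of the genes, are given as a description without a test. TET1 was at least 204-fold lower in MHCC-97H, with 3 counts over its 3 DMSO libraries as the limit. TET2 differed by -1.04 on the log2 scale (SE 0.27), and by -0.14 once the GC and length trend was removed. Of the other genes DNMT1, DNMT3A and DNMT3B passed an adjusted p of 0.05 and TET3 and UHRF1 did not, where 84.6% of all genes passed. DNMT3A was higher by 0.48 on the log2 scale (SE 0.10, edgeR, adjusted p = 0.00039), averaging 10.6 ± 1.59 CPM in MHCC-97H, 7.82 ± 0.744 in MDA-MB-231 and 7.47 ± 0.273 in HCT-116 (SD, n = 3 each). With library totals it was 0.21 (adjusted p = 0.064), a setting that moves the median of all genes from -0.083 to -0.353. With the GC and length trend removed DNMT3A was higher by 0.72 (edgeR, adjusted p = 2.4e-06).

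DNMT3B differed by -0.49 in that comparison (SE 0.20, edgeR, adjusted p = 0.031), averaging 6.28 ± 1.53 CPM in MHCC-97H, 8.59 ± 0.707 in MDA-MB-231 and 9.04 ± 2.81 in HCT-116. Its adjusted p was 0.067 with the replicate block, 0.066 without DMSO replicate 2 and 0.18 without DMSO replicate 3 of MHCC-97H, 0.055 without replicate 2 of MDA-MB-231 and 0.073 without replicate 3 of HCT-116. With the GC and length trend removed DNMT3B differed by -0.69 (edgeR, adjusted p = 0.0076). DNMT1 differed by -0.15 (SE 0.04, edgeR, adjusted p = 0.0044) and by -0.09 with DESeq2 (adjusted p = 0.073) or relative log expression (adjusted p = 0.081). With that trend removed it differed by -0.07 (edgeR, adjusted p = 0.042). TET3 (0.03, edgeR, adjusted p = 0.80) and UHRF1 (0.11, edgeR, adjusted p = 0.39) did not pass. TET3 gave 0.37 after removal of the GC and length trend (adjusted p = 0.0012) and -0.24 with library totals (adjusted p = 0.036), so its direction turns on the scaling.

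Genes that work with the 7 were taken from lists, with edgeR calls in MHCC-97H set beside 12.9% of all genes higher and 14.7% lower. Among 9 tested partners of the methyltransferases, 3 rose and 2 fell with H3B-8800, with a median log2 fold change of -0.13 against -0.06 over all genes. UHRF2, a relative of UHRF1, averaged 172 ± 10.8 CPM with H3B-8800 and 129 ± 5.19 CPM with DMSO (SD, n = 3 each), a log2 fold change of 0.42 (SE 0.09, adjusted p = 0.0065). USP7, which deubiquitinates UHRF1 and DNMT1, rose by 0.42 (SE 0.08, adjusted p = 0.0040). The chromatin remodeller HELLS, needed for methylation of repeats, rose by 0.54. TRIM28 and EHMT2, both parts of repressive complexes, had -0.26 and -0.32. After removal of the trend on GC and length 1 was higher and 1 lower, USP7 (0.25) and EHMT2 (-0.19). UHRF2 then gave 0.13 (adjusted p = 0.44), HELLS 0.16 (adjusted p = 0.24) and TRIM28 0.00, and with library totals 4 rose and 0 fell. Library totals move the median of all genes in MHCC-97H from -0.058 to 0.0392. The share of all genes called in each direction with library totals was not counted, here or for the lists below. With the trend removed 15.4% of all genes passed, without a split by direction.

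Under DMSO all 9 tested partners passed between MHCC-97H and the mean of the other labels, 4 higher and 5 lower, where 84.6% of all genes passed. By adjusted p UHRF2 ranked first among them. It averaged 129 ± 5.19 CPM in MHCC-97H, against 14.3 ± 0.925 in MDA-MB-231 and 15.2 ± 1.76 in HCT-116 (SD, n = 3 each). The log2 difference from their mean was 3.13 (SE 0.08, edgeR, adjusted p = 5.5e-15). PCNA, the replication clamp that binds DNMT1, differed by -1.34 (SE 0.07, edgeR, adjusted p = 2.6e-11), lower in MHCC-97H.

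Among the 8 readers of methylated CpG, 3 rose and 3 fell in MHCC-97H. ZBTB38, a zinc finger reader, averaged 18.2 ± 10.6 CPM with H3B-8800 and 4.78 ± 0.649 CPM with DMSO (log2 fold change 1.92, SE 0.49, edgeR, adjusted p = 0.011), from treated libraries as low as 6.13 CPM. By limma voom ZBTB38 did not pass (adjusted p = 0.14). ZBTB33 (Kaiso) rose by 0.73 and MBD4, a thymine glycosylase, by 0.36. MBD3, a subunit of the NuRD complex that does not itself prefer methylated DNA in mammals, had -0.36, ZBTB4 -0.23 and MBD2 -0.15. After removal of the trend the counts were 2 higher (ZBTB38, 1.48, and ZBTB33, 0.52) and 2 lower (MBD3, -0.25, and MBD2, -0.23), with MBD4 at 0.26 and ZBTB4 at -0.07, and they were 3 higher and 0 lower with library totals.

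Of 16 tested partners of TET and of base excision repair, 2 rose and 2 fell. OGT, the glycosyltransferase that binds TET2 and TET3, averaged 218 ± 9.69 CPM with H3B-8800 and 138 ± 15.7 CPM with DMSO (log2 fold change 0.67, SE 0.15, edgeR, adjusted p = 0.0060). DCAF1, a substrate receptor of the CRL4 ubiquitin ligase that modifies TET proteins, averaged 36.9 ± 1.97 CPM with H3B-8800 and 27.7 ± 2.45 CPM with DMSO (0.41, SE 0.08, adjusted p = 0.0030). GADD45B had -0.48 and POLB, the gap-filling polymerase, -0.40. TDG, the glycosylase that acts on TET products, gave 0.13 (SE 0.27, adjusted p = 0.78) and CXXC4 0.59 (SE 0.31, adjusted p = 0.17). With the trend removed 2 were higher, OGT at 0.35 and DCAF1 at 0.38, and POLB (-0.52) was lower, GADD45B (-0.18) being the call lost.

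In the list of 2-oxoglutarate and SAM metabolism, which supplies the cofactors of both enzyme families, 3 of 14 genes rose and 4 fell. IDH1, which makes 2-oxoglutarate in the cytosol, averaged 87.9 ± 17.0 CPM with H3B-8800 and 41.6 ± 1.40 CPM with DMSO in MHCC-97H (log2 fold change 1.08, SE 0.10, edgeR, adjusted p = 3.2e-05). MTR, methionine synthase, rose by 1.05 (SE 0.19) and MAT2A, which makes SAM, by 0.60 (SE 0.13). AHCY, which clears the product inhibitor S-adenosylhomocysteine, had -0.36, the mitochondrial IDH2 -0.28, and the succinate dehydrogenase subunits SDHA and SDHB -0.22 and -0.21. With the trend removed IDH1 gave 0.95, MTR 0.77 and MAT2A 0.56, AHCY -0.12, SDHA -0.28, IDH2 -0.02 and SDHB -0.09. IDH1, MTR, MAT2A, AHCY and SDHA still passed, and IDH2 and SDHB did not. With library totals the counts were 3 higher and 1 lower.

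Among 14 S phase genes, of interest because DNMT1 and UHRF1 follow the cell cycle, 1 rose (MCM6, 0.40) and 3 fell (MCM5, -0.31, MCM7, -0.22, and TYMS, -0.17). With the trend removed 1 rose (MCM6, 0.29) and 1 fell (MCM5, -0.20), with MCM7 at 0.01 and TYMS at -0.01, and with library totals 2 rose and 0 fell. Of 14 germline genes known to be kept silent by DNA methylation in somatic cells, 6 passed the filter on low counts. STK31 and MAGEC2 had 0 counts in MHCC-97H, SSX1 6 and SOHLH2 30 over its 6 libraries, which is too few for a difference to be detectable. MAGEA1 and GAGE1 did not pass by edgeR (adjusted p = 0.21 and 0.45, neither with an unadjusted p under 0.05) or DESeq2, and passed by limma voom (adjusted p = 0.011 and 0.034). Their edgeR log2 fold changes were negative, -0.16 (SE 0.08) and -0.22 (SE 0.19). With the trend removed these were 0.02 and -0.35. MAGEA1 averaged 39.8 CPM over the 6 MHCC-97H libraries and had no count elsewhere. GAGE1 averaged 34.5 CPM in MHCC-97H and 0.0129 (MDA-MB-231) and 0.00502 (HCT-116) elsewhere. SSX1 averaged 0.0302 CPM in MHCC-97H, 207 in MDA-MB-231 and 206 in HCT-116. Of the 67 tested genes of the 6 lists, 0 passed under MDA-MB-231, under HCT-116 or in their mean by edgeR, DESeq2 or limma voom. By edgeR 5, 4 and 6 of them had an unadjusted p under 0.05 in these comparisons.

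**Figure D5:**
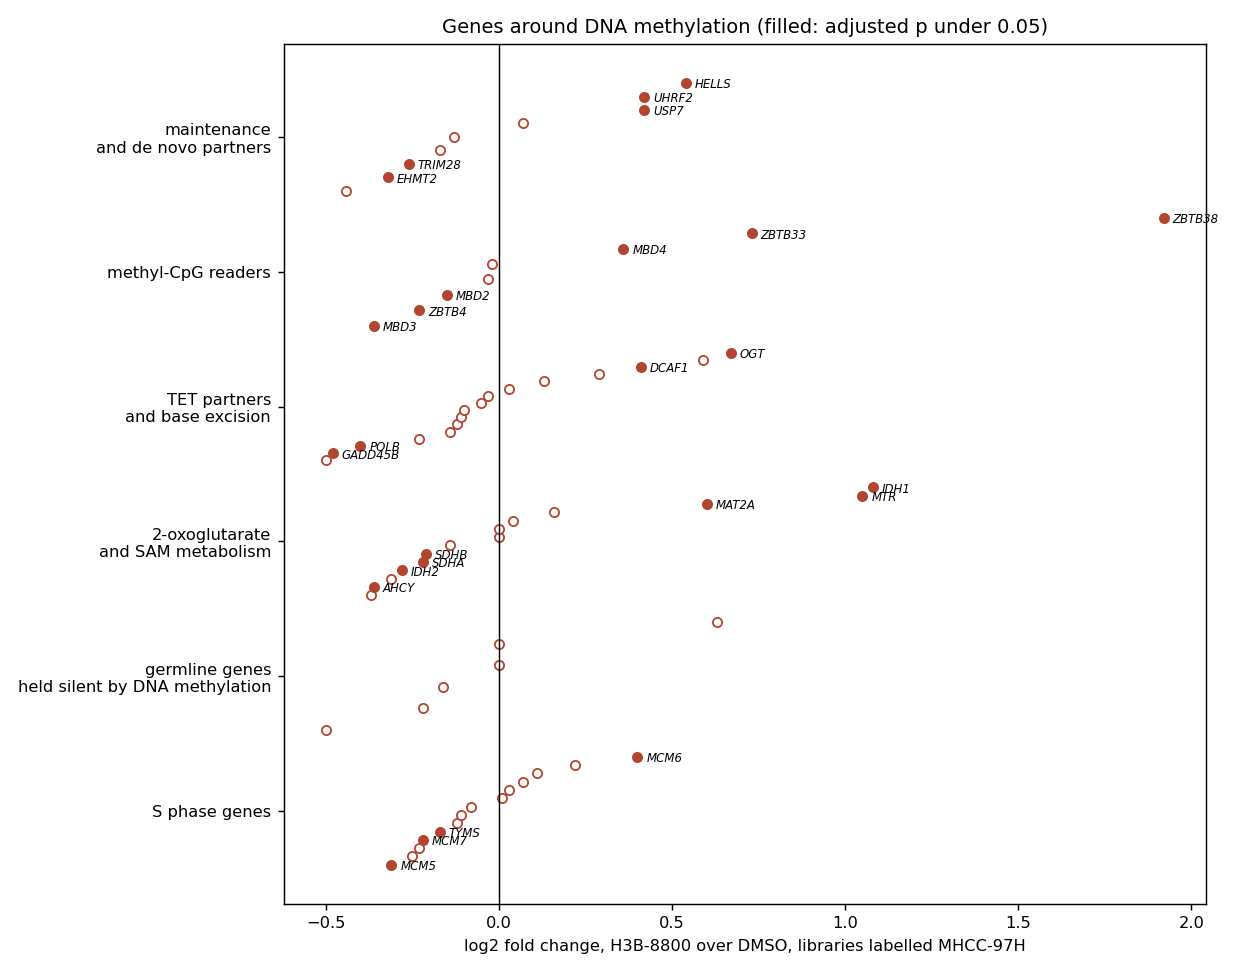
Log2 fold change of H3B-8800 over DMSO in MHCC-97H (horizontal axis) of each tested gene of 6 lists, sorted within its list; filled and named points passed an adjusted p of 0.05 in edgeR. ZBTB38, IDH1 and MTR lie above 1, and 2 germline genes without counts in MHCC-97H are drawn at 0.

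Genes averaging at least 10 CPM over all 18 libraries were ranked by the Pearson r of their log2 CPM with each of the 7. This is a description over libraries that share line profile and GC lean. Over 18 libraries RBM27 (r = 0.955), ABLIM1 (0.952) and MACF1 (0.943) were most like TET2. ABLIM1 averaged 122 ± 4.39 CPM with H3B-8800 and 73.4 ± 17.4 CPM with DMSO in MHCC-97H (SD, n = 3 each). Over the 6 MHCC-97H libraries DCAF1 (0.997), HTT (0.995), JADE3 (0.994), COBLL1 (0.993) and TGFBR3 (0.993) led among 9137 genes. COBLL1 reached 10 CPM only through the other labels, with 4.16 CPM with H3B-8800 and 1.95 CPM with DMSO in MHCC-97H. That ranking uses the TET2 values that chose the genes. NIN (0.983), EIF1AX (0.975) and C5orf51 (0.973) were most like TET3. For TET1 these were HAVCR1, CDH6 and A1CF (0.999 each), all 3 likewise at 0 in MHCC-97H. REXO4 (0.929) was nearest to DNMT1, GSTK1 (0.951) to DNMT3A and HEMK1 (0.896) to DNMT3B. UHRF1 had no close neighbour, SLC10A3 reaching 0.685. In such bulk libraries, fewer cells with a message and less of it per cell cannot be told apart.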

How the data were processed

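RNA was sequenced in 18 libraries, 3 in each of 6 groups taken from the labels. The deposited file holds raw whole-number counts of 20263 Ensembl genes made by the authors, with no normalization; per the submitters' processing notes fastp, HISAT2 and GRCh38 were used. For versions, counting tool, annotation and strand setting: not given in the sources used here. Without a known strand setting, antisense reads cannot be told apart. Counts were filtered with filterByExpr (14234 genes left), scaled with TMM factors and tested with edgeR 4.0.16 (quasi-likelihood, robust, all 18 libraries, Benjamini-Hochberg over all genes tested, threshold 0.05) in R 4.3.3; the test was checked on simulated data. Intervals are at 95%. DESeq2 1.42.0, limma 3.58.1 voom, other scalings and filters, each library left out, and removal of a per-library spline trend (5 degrees of freedom) on GC and length were alternatives. Lengths, GC and positions come from GENCODE 29 (20224 genes matched), promoters from RefSeq. The 7 genes and all lists were chosen with earlier results of these data known. Named list genes are those of smallest adjusted p (4 a list); HELLS, MBD2, MBD4, IDH2, SDHA, SDHB, TDG and CXXC4 were added after their values were seen.

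Groups share replicate numbers. The deviations of same-numbered H3B-8800 and DMSO libraries of HCT-116 had r = 0.05, 0.19 and 0.03 over all tested genes. Over genes of at least 10 CPM r was 0.22, 0.49 and 0.19, highest for replicate 2. There H3B-8800 replicate 3 had an r of 0.25 with DMSO replicate 1. Same-numbered MDA-MB-231 libraries also had a positive r in every pair over those genes (0.14, 0.06 and 0.05). Those of MHCC-97H did not (-0.02, 0.12 and 0.04). What a number marks is not stated, so the fit without a block is the one reported.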

Additional observations from a re-analysis of the deposited data

How the results depend on the processing

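Under every alternative run, 0 of the 7 genes passed in MDA-MB-231, in HCT-116, in their mean or in their difference. With the GC and length trend removed, 2193 genes passed in MHCC-97H and 8 in MDA-MB-231. With the replicate block and that trend removed, 2538 passed in MHCC-97H, 8 in MDA-MB-231, 13 in the mean of MDA-MB-231 and HCT-116, and 8 between their DMSO libraries; the replicate block alone gave 24 in that mean. DESeq2 passed 57 genes in MDA-MB-231, 24 in HCT-116, 69 in their mean, 25 in their difference and 26 between their DMSO libraries, where limma voom passed 8. The 6 libraries of a label alone gave 14 for MDA-MB-231 and 1 for HCT-116. Leaving out each library gave 2141 to 4455 genes in MHCC-97H, 4 to 8 in MDA-MB-231, 3 to 15 in HCT-116, 6 to 22 in their mean, 5 to 9 in their difference and 4 to 7 between their DMSO libraries. Without both HCT-116 replicate 2 libraries, an alternative chosen after seeing the data, the counts were 15 in MDA-MB-231, 11 in the mean, 10 in the difference and 9 between the DMSO libraries, and DNMT3B in HCT-116 was -0.01. Near 0, signs turned. In the mean of MDA-MB-231 and HCT-116, TET1 was 0.04 with the trend removed, with and without the block (-0.12 to 0.04 with a library left out), and DNMT1 was -0.01 with library totals and with the trend removed, with and without the block (-0.01 to 0.03). Leaving out a library gave -0.10 to 0.01 for TET3 and -0.07 to 0.02 for DNMT3A in that mean, and -0.35 to 0.13 for TET2 in HCT-116. In the DMSO comparison of MHCC-97H with the rest, TET3 was -0.24 with library totals and -0.02 to 0.07 with a library left out, and UHRF1 was -0.16 with library totals and -0.08 with the trend removed, with and without the block. The cause of these changes was not tested. Depth limits TET1 to the stated upper limit in MHCC-97H.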
